A study of Saccharomyces cerevisiae with 24 samples.

Results

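The sulfur amino acid and methionine genes described here are 36 genes of budding yeast, taken by name from a list of the pathway. No measured value enters the rule, but the list was drawn up with earlier results of these data known. Each is represented by the Affymetrix probe set whose single gene symbol is the listed name, and for SAM3, the only member with several such probe sets (5), by the brightest. They are 36 of 5656 genes that could be named in this way, and all 36 lay above the filter on low signal that left 5172 genes for testing. MET17 is not among them because the strain lacks it.

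Yeast builds sulfur into amino acids by taking up sulfate, activating it and reducing it to sulfide, which is then joined to a carbon chain made from aspartate through homoserine. The resulting homocysteine is methylated to methionine or passed through cystathionine to cysteine, and methionine is activated to S-adenosylmethionine, the methyl donor of the cell. The transcription factor Met4 switches most of these genes on together with Cbf1, Met28, Met31 and Met32, and the ubiquitin ligase SCF-Met30 restrains Met4 when sulfur compounds are plentiful. MET17 encodes the enzyme that joins sulfide to the homoserine-derived chain, so cells without it need an outside source of methionine or a similar compound.

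Transcripts were measured on 24 one-colour Affymetrix Yeast Genome S98 arrays of strain BY4730, a haploid a-type laboratory strain described as lacking LEU2, MET17 and URA3, with treatments of 120 min. The 11 Control arrays came from cultures given the solvent DMSO, meant for the DNA-damaging agents, or left in medium, meant for NaCl and ethanol, and no label says which array had which. Methyl methanesulfonate (MMS), which methylates DNA, was given at 0.12% for replicates 1 and 2 and at 0.14% for replicate 3, and bleomycin, which breaks DNA strands, at 0.15 U/ml for replicates 1 and 3 and 0.1 U/ml for replicate 2. Cisplatin, which crosslinks DNA, has 2 arrays, titled 500 ug and 650 ug with no volume. NaCl has 3 arrays at 10%, 8% and 9%, and ethanol has 2 at 15%. The description has 600 mg/mL of cisplatin and 10 mg/mL of NaCl instead, which leaves both doses uncertain. Whether the arrays of a group came from separate cultures is not stated, so p-values measure only the spread between these arrays, which may be technical. The composition of the medium is not given in the sources used here.

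Values are log2 signals after quantile normalization. A treated array is compared with the Control array whose title carries the same date, and ethanol replicate 1 is assumed to share its control's date although the year in its title differs. MMS replicates 1, 2 and 3 have Control replicates 10, 11 and 9, and ethanol replicates 1 and 2 have Control replicates 6 and 7. Bleomycin replicates 1, 2 and 3 have Control replicates 2, 4 and 5, NaCl replicates 1, 2 and 3 have Control replicates 2, 4 and 3, and cisplatin replicates 1 and 2 have Control replicates 1 and 5, so some agents share control arrays. Fold changes are log2 values with their standard error (SE) from limma's fit of all 24 arrays with the date as a block. The threshold for a call was 0.05 on p after Benjamini-Hochberg adjustment across the 5172 genes, and adjusted p values below are limma's.

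The probe set of MET17 read 3.60 to 4.23 in the 11 Control arrays and 3.64 to 4.62 in the treated arrays, close to the filter at 3.79. That of URA3 read 3.07 to 3.97 in the Control arrays, 3.72 to 4.63 with NaCl and at most 3.53 with the other agents. The probe set of LEU2 read 5.12 to 6.20 in the Control arrays and up to 7.39 with NaCl, well above the filter, although the strain is described as lacking that gene. The filter removes low signals and does not show whether a gene is present. The source of the LEU2 signal was not tested. The a-cell pheromone gene MFA1 read 11.84 to 13.05 in the Control arrays, and the other a-cell genes MFA2, STE2 and BAR1 were also above the filter. The alpha-cell genes read 3.41 to 4.06 (STE3), 4.69 to 5.66 (MF(ALPHA)1) and 4.02 to 4.77 (MF(ALPHA)2), the last 2 above the filter. Control probe sets along the actin transcript ACT1 differed between arrays. The signal from the middle of ACT1 was 4.48 to 5.26 in Control replicates 6, 7, 9, 10 and 11 and 8.07 to 9.87 in the other 6 Control arrays. It was 8.27 to 8.57 in the MMS arrays, whose same-date controls are among the 5 low ones, and 3.70 to 4.03 in the ethanol arrays. The ACT1 3′ signal was under 10 in NaCl replicates 2 (7.98) and 3 (8.21) and in Control replicate 11 (9.37), and these are called the low-3′ arrays. NaCl replicates 2 and 3 had a median correlation over genes of 0.673 and 0.656 with the Control arrays. What these differences contribute to the results below was not tested unless a value is given.

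**Figure D1:**
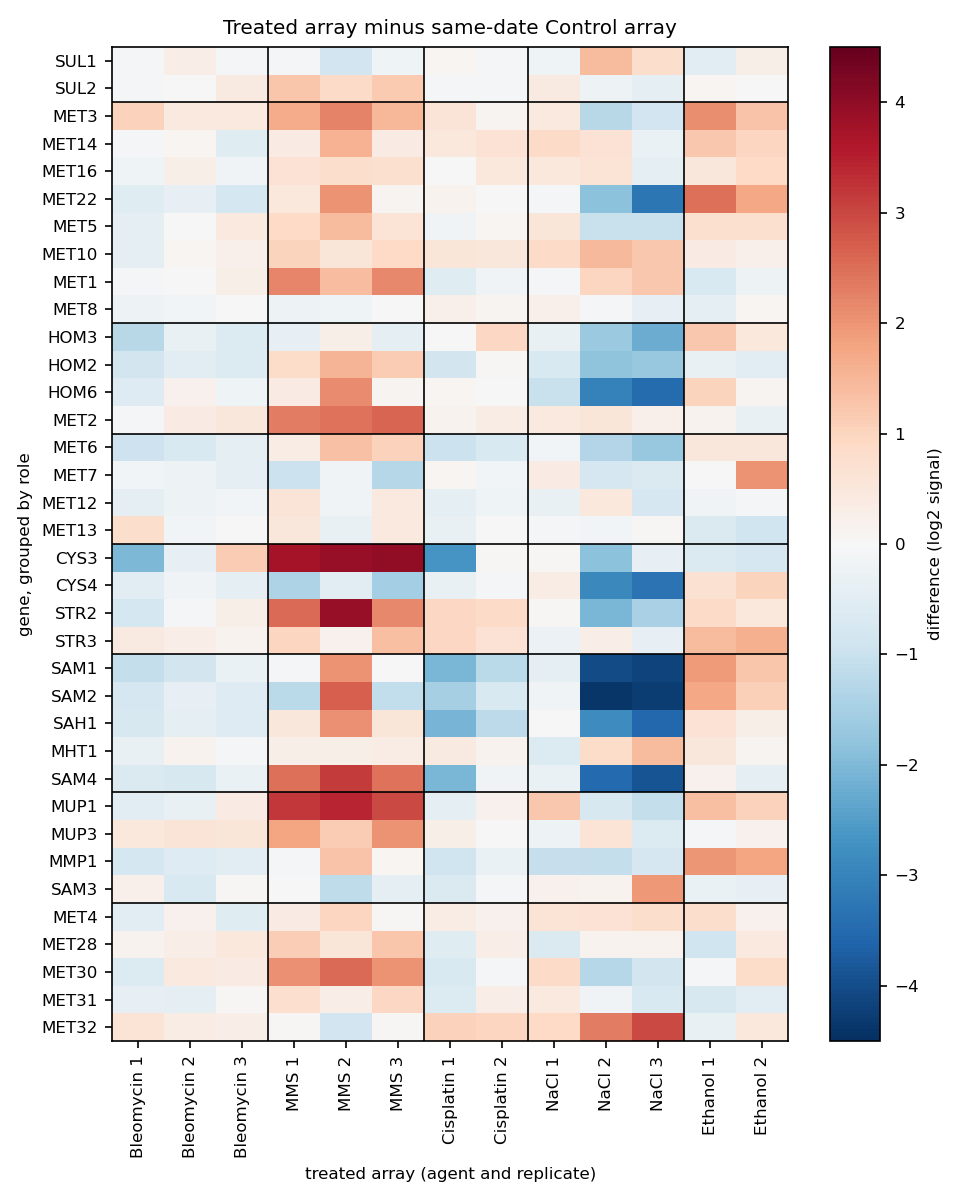
Difference in log2 signal between each of 13 treated arrays (columns) and the Control array of the same date, for the 36 genes (rows, grouped by role with lines between the roles); red is higher than the control. CYS3, STR2, MET2, MUP1 and MET30 are red on all 3 MMS dates, and SAM1, SAM2, SAH1 and SAM4 are blue in NaCl replicates 2 and 3 but near 0 in replicate 1.

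MMS raised 19 of the 36 genes and lowered none at this threshold, with 17 not called. In bulk RNA, fewer cells with a transcript and less of it per cell cannot be told apart. Over all genes tested, 50.5% were called, 33.5% higher and 17% lower. The median change of the 36 genes was 0.83, beside 0.29 over all genes. On all 3 dates 24 of the 36 genes were higher than the same-date control, the 19 among them, and 5 were lower, beside 47.7% and 26.9% of all genes. The count was 12 without Control replicate 9 and 12 without MMS replicate 3, which are the only arrays of their date, so these fits are nearly the same.

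Of the 4 genes of transsulfuration, the path between homocysteine and cysteine, 3 rose with MMS. CYS3, which encodes cystathionine gamma-lyase and releases cysteine, read 9.62, 9.64 and 9.96 in the MMS arrays and 5.86, 5.72 and 5.96 in their same-date controls. The 11 Control arrays ran from 5.72 to 9.43 with a median of 7.25, so the MMS arrays stood above every one of them, although narrowly above Control replicate 8. CYS3 rose by 3.89 ± 0.613 (14.9-fold, adjusted p = 0.0003). Its same-date controls are among the 5 Control arrays with a low ACT1 middle signal, which averaged 6.14 for CYS3. The other 6 Control arrays averaged 8.11, nearer to the MMS arrays. STR2, which encodes cystathionine gamma-synthase, read between 7.46 and 7.57 in the 3 MMS arrays and 4.94, 3.64 and 5.30 in the same-date controls. No Control array exceeded 6.02, so the groups did not overlap. STR2 rose by 2.88 ± 0.46 (7.38-fold, adjusted p = 0.000333). STR3, cystathionine beta-lyase of the reverse step, rose by 0.85 ± 0.227 (adjusted p = 0.00862). CYS4, cystathionine beta-synthase, went the other way at -1.12 ± 0.606 and was not called (adjusted p = 0.143). Its MMS arrays read 8.61, 8.54 and 8.55, below all 11 Control arrays (9.01 to 10.09).

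Of the 4 genes of transport, 2 rose with MMS. MUP1, the high-affinity methionine permease gene, read 9.21, 9.30 and 9.29 with MMS and 6.03, 5.87 and 6.31 in the same-date controls. The highest of the 11 Control arrays was 7.37, so the groups were far apart. MUP1 rose by 3.20 ± 0.412 (9.16-fold, adjusted p = 7.28e-05). The 5 Control arrays with a low ACT1 middle signal, which include these controls, averaged 6.18 for MUP1 and the other 6 averaged 7.15. MUP3, a low-affinity methionine permease gene, read 5.97, 5.94 and 6.19 with MMS, and the Control arrays ran from 3.84 to 4.80. It rose by 1.65 ± 0.238 (adjusted p = 0.000161). The S-methylmethionine permease gene MMP1 (0.44 ± 0.253, adjusted p = 0.171) and the S-adenosylmethionine permease gene SAM3 (-0.52, adjusted p = 0.241) were not called.

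In the homoserine branch, MET2, which encodes homoserine O-acetyltransferase and makes the acceptor for sulfide, read 5.94, 5.95 and 6.07 with MMS. Its same-date controls read 3.64, 3.49 and 3.45, and none of the 11 Control arrays exceeded 4.09. MET2 rose by 2.46 ± 0.168 (5.49-fold, adjusted p = 1.28e-06), and its Control arrays spanned only 0.65. HOM2, aspartate semialdehyde dehydrogenase, rose by 1.16 ± 0.305 (adjusted p = 0.00768). HOM2 in the MMS arrays (7.79 to 7.99) lay inside the Control range of 6.38 to 8.68. The aspartate kinase gene HOM3 was at -0.18 (adjusted p = 0.733) and the homoserine dehydrogenase gene HOM6 at 0.87 (adjusted p = 0.202).

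**Figure D2:**
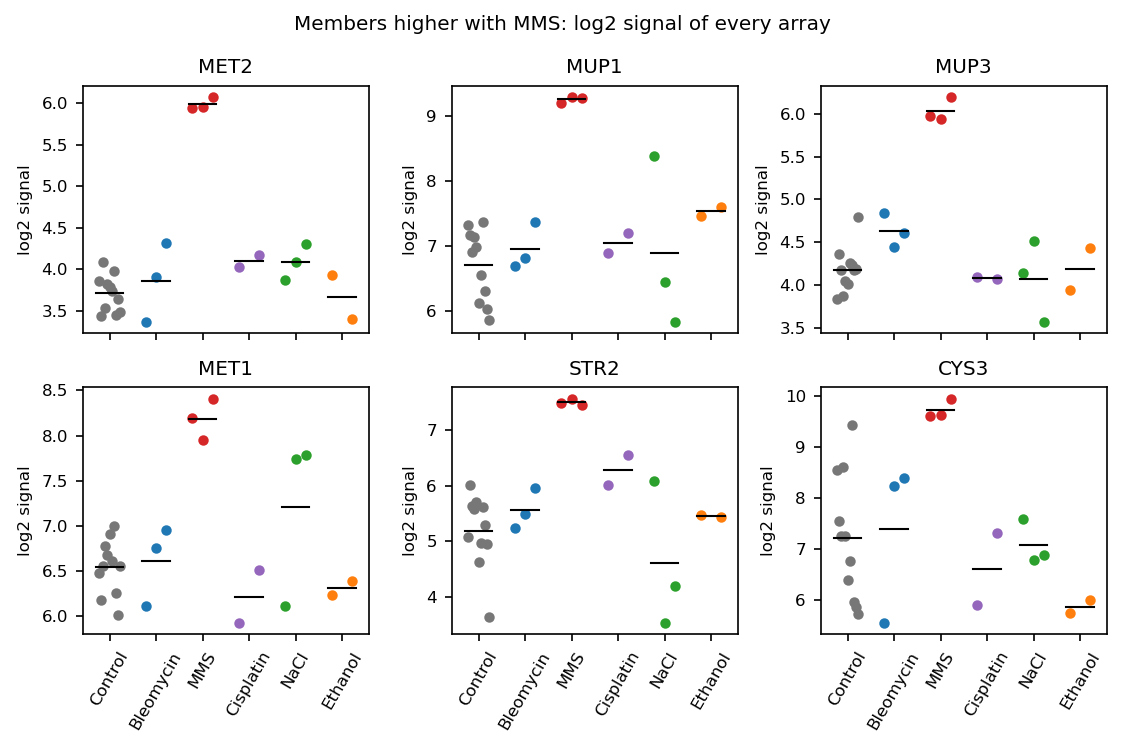
Log2 signal of every array for MET2, MUP1, MUP3, MET1, STR2 and CYS3 in the 6 groups; each point is an array and each line a group mean. The 3 MMS points stand above every Control point in all 6 panels.

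Of the 8 genes of sulfate assimilation 6 rose with MMS. MET1, which makes the siroheme cofactor of sulfite reductase, read 8.20, 7.95 and 8.41 with MMS and at most 6.55 in the same-date controls. It rose by 1.91 ± 0.282 (adjusted p = 0.000185), and no Control array exceeded 7.00. MET3, ATP sulfurylase, the entry step, read 5.84, 5.85 and 6.09 beside 4.18, 3.62 and 4.60 and rose by 1.80 ± 0.291 (adjusted p = 0.000373). The sulfite reductase genes MET5 and MET10 rose by 0.98 ± 0.344 and 0.82 ± 0.195, the APS kinase gene MET14 by 0.78 ± 0.3 and the PAPS reductase gene MET16 by 0.73 ± 0.215. MET8, the other siroheme gene, was at -0.15 (adjusted p = 0.502), and MET22, the phosphatase that clears the by-product of PAPS reduction, was at 0.87 (adjusted p = 0.177). Of the sulfate permease genes, SUL2 rose by 1.10 ± 0.2 (adjusted p = 0.00084) and SUL1 was at -0.38 (adjusted p = 0.266).

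Among the regulators, MET30, the F-box subunit that restrains Met4, read 6.65, 6.87 and 6.74 with MMS and 4.61, 4.33 and 4.71 in the same-date controls. No Control array exceeded 5.29. MET30 rose by 2.20 ± 0.444 (adjusted p = 0.00162). MET28 rose by 0.97 ± 0.272 (adjusted p = 0.0109) and MET31 by 0.67 ± 0.252 (adjusted p = 0.0441). MET4 itself was at 0.46 ± 0.232 (adjusted p = 0.116). MET32, the paralog of MET31, was at -0.25 ± 0.359 (adjusted p = 0.587).

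In the S-adenosylmethionine cycle SAM4, which encodes an S-adenosylmethionine-homocysteine methyltransferase, rose by 2.69 ± 0.598 (adjusted p = 0.00296). SAM4 is one of the genes that varied most between Control arrays, from 3.90 to 8.49, and the MMS arrays (6.80, 7.04 and 7.07) lay inside that range. The S-adenosylmethionine synthetase genes SAM1 (0.65, adjusted p = 0.46) and SAM2 (0.12, adjusted p = 0.918), the S-adenosylhomocysteine hydrolase gene SAH1 (1.04, adjusted p = 0.155) and MHT1, a methyltransferase that uses S-methylmethionine (0.28, adjusted p = 0.444), were not called. SAM2 was lower than its same-date control by 1.22 and 1.09 on the dates of MMS replicates 1 and 3 and higher by 2.68 on that of replicate 2, whose control is the low-3′ array. MET6, methionine synthase, rose by 0.90 ± 0.311 (adjusted p = 0.0309), while the folate genes MET7, MET12 and MET13 were not called (-0.80, 0.29 and 0.20).

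All 3 MMS arrays stood above all 11 Control arrays for 14 of the 36 genes, a pattern found in 28.7% of all genes. Of the 19 genes called with MMS, 13 had this pattern. These were MET3, MET14, MET16, MET10, MET1, MET2, CYS3, STR2, STR3, MUP1, MUP3, MET28 and MET30. MHT1 had the same pattern without a call. The other 6 called genes, SUL2, MET5, HOM2, MET6, SAM4 and MET31, overlapped the Control arrays. With the class of the ACT1 5′ signal as the block in place of the date, 14 genes rose and none fell, and HOM2 (-0.43), MET6 (-0.27), MET5 (-0.19) and SAM4 (-0.53) turned to the opposite sign without a call. SUL2 (0.35), MET31 (0.10) and MET14 (0.32) lost their call there. Without any date block 6 of the 19 lost their call, namely MET14 (0.54), MET5 (0.27), HOM2 (0.22), MET6 (0.12), SAM4 (0.81) and MET31 (0.33). The calls of 11 genes held with any 1 array left out, namely SUL2, MET3, MET10, MET1, MET2, CYS3, STR2, SAM4, MUP1, MUP3 and MET30. MET16 and MET6 lost theirs when Control replicate 9, Control replicate 11, MMS replicate 2 or MMS replicate 3 was left out (adjusted p at most 0.0672 and 0.181), and HOM2 without Control replicate 11 or MMS replicate 2 (0.0621). STR3 and MET28 lost theirs when Control replicate 9, Control replicate 10, MMS replicate 1 or MMS replicate 3 was left out (at most 0.0933 and 0.0749), and MET5 without any of the 6 arrays of those dates (up to 0.184). MET14 and MET31 lost theirs without 19 and 14 of the 24 arrays in turn. Where a date holds only a Control array and 1 treated array, leaving out either removes the same comparison and gives nearly the same fit. Such losses, here and below, are therefore not separate checks. With the low-3′ arrays left out 19 genes rose and 3 fell, beside 62.8% of all genes called, and 18 of the original 19 were among those called. Control replicate 11 is the only control on the date of MMS replicate 2, so the MMS changes in that fit rest on MMS replicates 1 and 3. The 3 that fell there were CYS4 (-1.46 ± 0.204, adjusted p = 5.05e-05), SAM2 (-1.16 ± 0.239, adjusted p = 0.001) and MET7 (-1.12 ± 0.343, adjusted p = 0.0123).

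A further 39 genes next to these in sulfur metabolism were listed, and 38 of them were tested. MMS raised 20 and lowered none (median 0.90), beside 33.5% and 17% of all genes. The largest rises were in SSU1, the sulfite exporter gene, by 4.38 ± 0.519 (adjusted p = 4.12e-05), and in genes of the SCF ubiquitin ligase, HRT1 by 4.20 ± 0.333 and SKP1 by 3.85 ± 0.419. HRT1, SKP1 and the cullin gene CDC53 encode core subunits that also serve other F-box proteins beside Met30. ADO1, the adenosine kinase gene that helps to recycle S-adenosylhomocysteine, rose by 3.48 ± 0.413. For genes of this further list no alternative setting is reported, and the MMS controls are among the Control arrays with a low ACT1 middle signal. Of the 5 genes of Met4 partners and SCF-Met30, 4 rose. Of the 6 genes that make or break down glutathione from cysteine 3 rose, and of 8 tested genes of other sulfur uptake and release 5 rose.

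Bleomycin moved none of the 36 genes past the threshold, beside 1.89% of all genes called, 1.49% higher and 0.406% lower. With limma 5 had an unadjusted p under 0.05, and the median change was -0.25 beside -0.08 over all genes. The fitted changes ran from -1.02 (SAM1) to 0.62 (MET3). On all 3 dates 12 genes were lower than the same-date control and 5 were higher, beside 25.8% and 20.2% of all genes. HOM2, HOM3, MET6, MMP1, SAM1, SAM2 and SAH1 were among the 12. For SAM1 the 3 differences were -1.09, -0.83 and -0.31. MET3 and MUP3 were among the 5, MUP3 by 0.47, 0.57 and 0.56. MET3 read 6.18, 5.33 and 5.40 with bleomycin, above all 11 Control arrays (up to 5.14), and HOM3 read 5.95, 5.99 and 5.96, below all of them (down to 6.33). All arrays above the Control arrays was a pattern of 5.61% of all genes with bleomycin, and all below of 1.6%. Without the low-3′ arrays these 9 named genes were called, 2 higher and 7 lower, while 10.9% of all genes were called. MUP3 was then at 0.55 ± 0.133 (adjusted p = 0.0184), MMP1 at -0.66 ± 0.154 (adjusted p = 0.016) and SAM1 at -0.80 ± 0.199 (adjusted p = 0.022). None of the 3 arrays left out is a bleomycin array, and Control replicate 11 has no bleomycin array on its date. NaCl replicate 2, however, shares its date with bleomycin replicate 2 and Control replicate 4. The fitted bleomycin changes therefore also depend on the NaCl arrays, and SAM1 moved from -1.02 to -0.80. With only the bleomycin and Control arrays SAM1 was at -0.74. The median SE of the 36 genes was 0.288 with all arrays and 0.173 without the 3. In the fit without a date block SAM1 was at 0.38 (adjusted p = 0.904).

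The changes with MMS and with bleomycin were compared in the same fit, each against its own same-date controls, since these agents share no date. The MMS controls are among the Control arrays with a low ACT1 middle signal and the bleomycin controls are not. In this fit the bleomycin changes also depend on the NaCl arrays of shared dates. The change with MMS was higher than that with bleomycin for 16 genes and lower for none, where 26.1% and 10.4% of all genes were called in those directions. CYS3 differed by 4.46 ± 0.845 (adjusted p = 0.00202), SAM4 by 3.63 ± 0.824, MUP1 by 3.53 ± 0.568, STR2 by 3.12 ± 0.634 and MET2 by 2.23 ± 0.232. The MMS and bleomycin arrays themselves averaged 9.74 and 7.39 for CYS3, 9.27 and 6.96 for MUP1, and 7.51 and 5.56 for STR2. For MET2 the averages were 5.99 and 3.86, but for SAM4 only 6.97 and 6.70. Bleomycin replicate 1 read 5.53 for CYS3 while replicates 2 and 3 read 8.24 and 8.39, so CYS3 varied more within bleomycin than within MMS. MET1 (1.80 ± 0.388) and MET30 (2.26 ± 0.612) also differed, MET30 with an adjusted p of up to 0.0528 without Control replicate 11 or MMS replicate 2. Without the date block SUL2 (0.38), MET3 (0.29), HOM2 (0.23), MET6 (0.14), SAM4 (0.27) and MET31 (0.55) lost their call. The count was 10 without Control replicate 10, and HOM2 (-0.17), MET6 (-0.10) and SAM4 (-0.55) turned to the opposite sign, uncalled, with the ACT1 5′ class as the block.

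**Figure D3:**
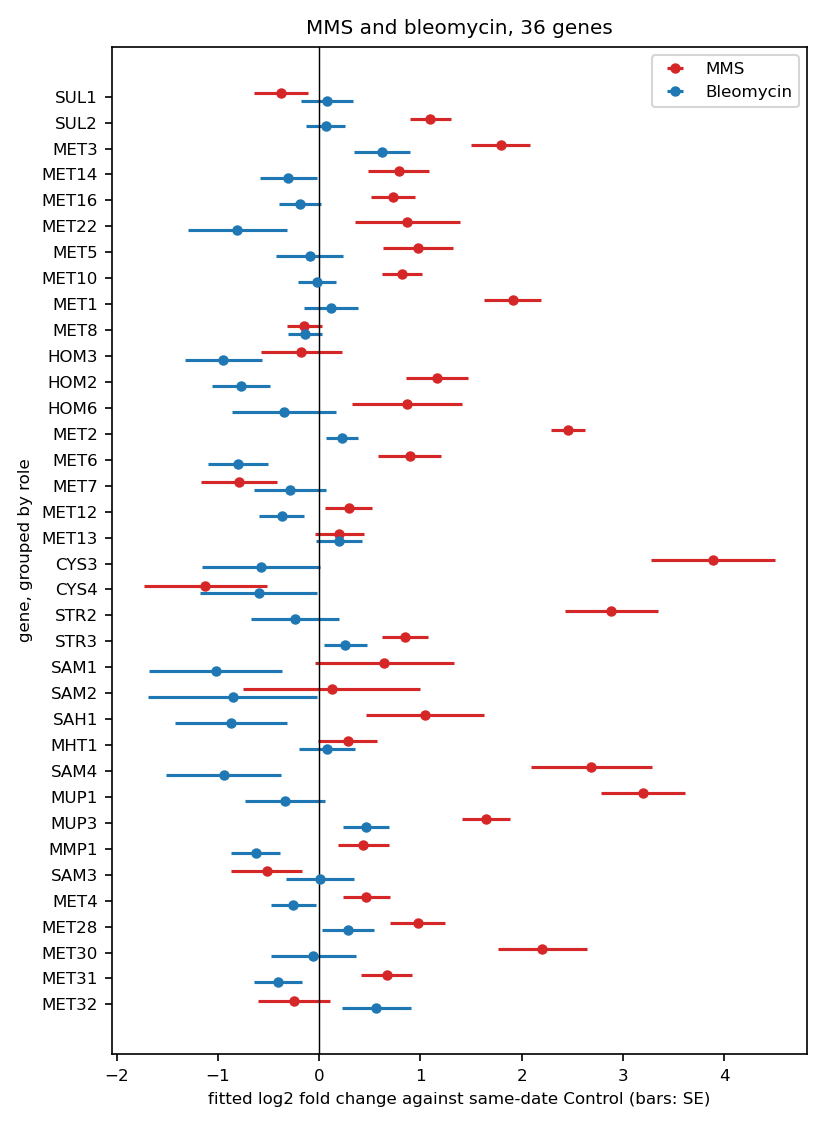
Fitted log2 fold change of the 36 genes against same-date Control arrays with MMS (red) and bleomycin (blue), with bars of 1 SE; rows are genes grouped by role. MMS points reach 3.89 (CYS3) while every bleomycin point lies between -1.02 and 0.62.

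Cisplatin (2 arrays) also called none of the 36 genes, beside 0.464% of all genes, 0.329% higher and 0.135% lower. With limma 6 had an unadjusted p under 0.05, and the median was -0.11. The lowest values lay in the S-adenosylmethionine cycle. SAM1 read 6.54 and 7.16 with cisplatin and 8.58 and 8.38 in the same-date controls, a fitted -1.77 ± 0.805 (adjusted p = 0.395). SAH1 read 6.13 and 6.72 beside 8.24 and 7.90, a fitted -1.67 ± 0.679 (adjusted p = 0.333). SAM2 (-1.11), SAM4 (-1.15) and CYS3 (-1.60) were uncalled too, and CYS3 differed by -2.67 on the date of replicate 1 and by 0.06 on that of replicate 2. On the date of cisplatin replicate 1 the ACT1 5′ signal was lower than in the control by 5.38, and on that of replicate 2 it was lower by 0.13. MET32 read 5.22 and 5.16 beside 4.20 and 4.19 and was at 1.07 ± 0.419 (adjusted p = 0.311). Once the low-3′ arrays were left out 10 genes were called, 4 higher and 6 lower, while 19.8% of all genes were called. They included SAM1 (-1.71 ± 0.237, adjusted p = 0.00108), SAH1 (-1.60 ± 0.22, adjusted p = 0.001), MET32 (1.03 ± 0.192, adjusted p = 0.00441) and STR3 (0.83 ± 0.17, adjusted p = 0.00688). Without NaCl replicate 1, 4 genes were called. SAM4 turned to 0.49 without a date block (adjusted p = 0.994).

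Ethanol (2 arrays) raised 3 of the 36 genes and lowered none, beside 3.83% and 1.18% of all genes (5.01% called). MMP1, the permease gene for S-methylmethionine, read 7.27 and 7.35 with ethanol and 5.27 and 5.59 in the same-date controls. None of the 11 Control arrays exceeded 6.16, so the groups did not overlap. MMP1 rose by 1.88 ± 0.31 (3.67-fold, adjusted p = 0.00902). STR3, cystathionine beta-lyase, read 6.40 and 6.58 beside 4.99 and 4.96 and rose by 1.51 ± 0.278 (adjusted p = 0.0137). MET3 read 5.14 and 5.16 beside 3.04 and 3.88 and rose by 1.70 ± 0.357 (adjusted p = 0.0238). For MET3 the ethanol arrays stood only just above the highest Control array (5.14). MET3 lost its call without the date block (0.72, adjusted p = 0.322), with the date as a random block (0.76, adjusted p = 0.286) and with the ACT1 5′ class as the block (0.92, adjusted p = 0.202), while STR3 and MMP1 kept theirs in these 3 fits.

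Other genes went the same way with ethanol but were not called. MET22 was higher than its same-date control by 2.48 and 1.76 (fitted 2.12 ± 0.631, adjusted p = 0.0762). SAM1 and SAM2 were at 1.59 ± 0.846 and 1.42 ± 1.07, MUP1 at 1.20 ± 0.505 and MET14 at 1.10 ± 0.368 (adjusted p = 0.107 to 0.443). In 11 genes both ethanol arrays stood above all 11 Control arrays, a pattern of 16.8% of all genes. These were MET3, MET14, MET16, MET22, MET10, HOM3, CYS4, STR3, MHT1, MUP1 and MMP1. MET13 stood below all of them, as did 9.42% of all genes. Each of the 3 calls was lost without Control replicates 6 or 7 or either ethanol array, which left 0 genes called in each case, and 0 were called with ethanol replicate 1 on a date of its own (limma, smallest adjusted p among the 3 genes 0.0879). With those 3 low-3′ arrays removed 16 genes were called, 14 higher and 2 lower, the 3 genes among them, while 42.7% of all genes were called. None of the arrays left out lies on an ethanol date. MET22 was then called at 2.12 ± 0.219 (adjusted p = 3.53e-05). Without NaCl replicate 1, 10 genes were called. None of the 38 other sulfur genes was called with ethanol in the fit of all arrays, beside 5.01% of all genes, with a median of 0.09.

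NaCl raised 5 of the 36 genes and lowered 11, where 51.8% of all genes were called, 14% higher and 37.8% lower. The median of the 36 genes was -0.14, beside -0.45 over all genes. The 3 NaCl arrays were not alike. Of the 16 called genes, 13 differed by at least 1 from the same-date control in replicate 2 and 13 in replicate 3, but 2 in replicate 1. NaCl replicates 2 and 3 are low-3′ arrays, with ACT1 3′ signals lower than in their same-date controls by 3.69 and 3.72, and replicate 1 was lower by 0.91.

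The largest falls with NaCl were in the S-adenosylmethionine cycle and rested on those arrays. SAM2 read 7.53, 3.05 and 2.99 in NaCl replicates 1, 2 and 3 and 7.69, 7.43 and 7.26 in the same-date controls. Replicate 1 lay within the Control range and replicates 2 and 3 lay below the lowest Control array (3.81, replicate 11). The fitted fall of SAM2 was -2.92 ± 0.847 (adjusted p = 0.0152). SAM1 fell by 2.78 ± 0.669 on the log2 scale, SAM4 by 2.53 ± 0.579, HOM6 by 2.46 ± 0.526, SAH1 by 2.12 ± 0.564 and CYS4 by 1.95 ± 0.587. MET22, which is also known as a salt-tolerance gene, was 7.08, 5.23 and 4.16 beside 7.13, 7.09 and 7.42 and fell by 1.71 ± 0.499 (adjusted p = 0.0155). HOM2, HOM3 and MET6 fell by 1.42, 1.39 and 0.99. Without the low-3′ arrays, SAM1 (-0.28), SAM2 (-0.11), SAM4 (-0.33), SAH1 (0.02), HOM6 (-0.80), HOM2 (-0.65), HOM3 (-0.12), MET6 (-0.01), MET22 (-0.05) and CYS4 (0.37) were not called.

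Of the 16 genes called with NaCl, 14 had the same sign on all 3 dates. Over the 36 genes 5 were higher and 10 lower on every date, beside 16.3% and 39.3% of all genes. MET10, a subunit of sulfite reductase, read 6.58, 6.69 and 6.58 with NaCl and 5.74, 5.22 and 5.36 in the same-date controls. All 3 stood above every Control array (up to 5.86), which 2.17% of all genes did with NaCl. MET10 rose by 1.23 ± 0.188 (adjusted p = 0.00115). MMP1 was lower by 1.05, 1.08 and 0.75 on the 3 dates and fell by 0.95 ± 0.245 (adjusted p = 0.00937), the opposite direction to ethanol. MET32 read 5.33, 6.54 and 7.21 beside 4.43, 4.24 and 4.25 and rose by 2.00 ± 0.348 (adjusted p = 0.00197). MET32 was also 6.07 in Control replicates 6 and 11, so only replicates 2 and 3 exceeded the Control arrays. MET4 (0.63 ± 0.225) and MET2 (0.44 ± 0.163) rose by less. MET1 was called at 0.72 ± 0.273 but differed by -0.07, 0.96 and 1.22 on the 3 dates, so replicate 1 did not share its direction.

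**Figure D4:**
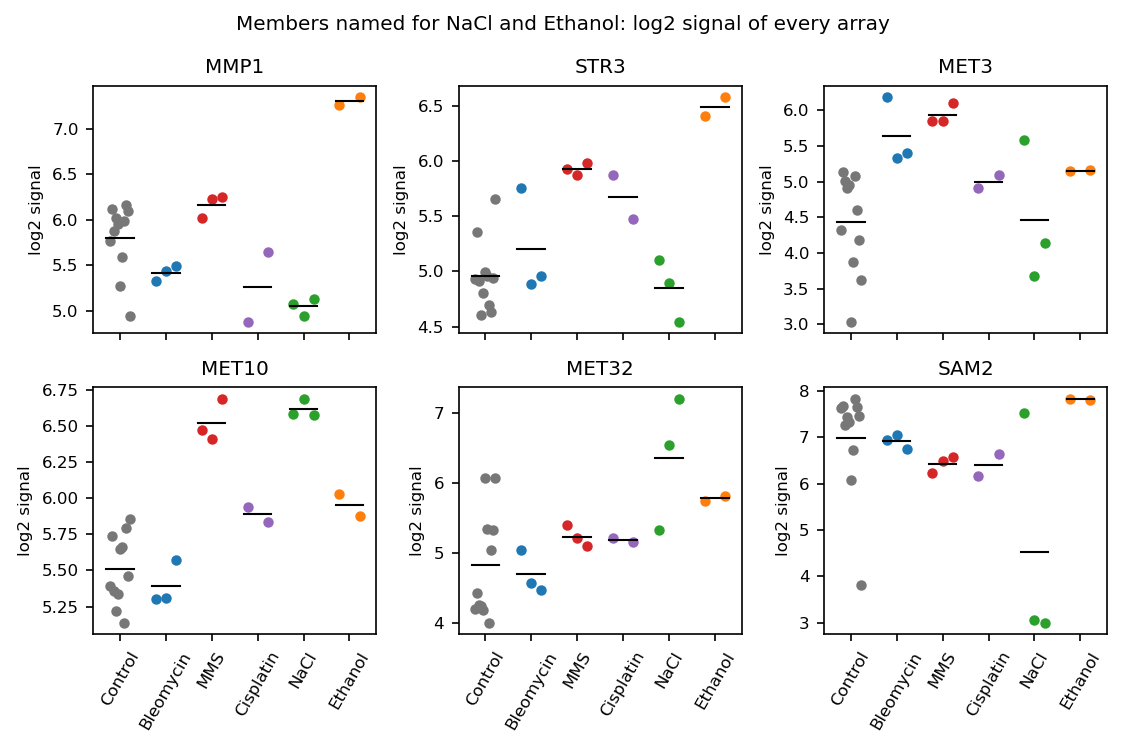
Log2 signal of every array for MMP1, STR3, MET3, MET10, MET32 and SAM2 in the 6 groups; each point is an array and each line a group mean. The ethanol points stand above all Control points for MMP1 and STR3, the NaCl points do so for MET10, and NaCl replicate 1 lies with the Control arrays for SAM2 while replicates 2 and 3 lie near 3.

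The NaCl count of 16 was 5 without Control replicate 3, 10 without Control replicate 4, 4 without NaCl replicate 2 and 5 without NaCl replicate 3. It was 7 without the date block, 9 with the ACT1 5′ class as the block and 0 with only the NaCl and Control arrays. Without the low-3′ arrays, which leaves 1 NaCl array that is assumed to vary like the other groups, it was 4, beside 16.7% of all genes called, namely MET10 (1.05 ± 0.254), MMP1 (-0.98 ± 0.249), MUP1 (1.37 ± 0.3) and MET30 (1.16 ± 0.347). MET10 and MMP1 are shared with the 16, and MET32 was at 0.80 there (adjusted p = 0.0529). MET10, HOM2, HOM6 and MET32 kept their call with any 1 array left out. MMP1 lost it without NaCl replicate 2 (adjusted p = 0.0657). MET22, HOM3, SAM1, SAH1 and SAM4 lost it without Control replicate 3 or NaCl replicates 2 or 3, MET6, CYS4 and SAM2 also without Control replicate 4, and MET1, MET2 and MET4 without 18, 14 and 11 of the 24 arrays in turn. MET1 was at 0.21 under median scaling (adjusted p = 0.402). Of the 38 other sulfur genes 2 rose and 23 fell with NaCl, beside 14% and 37.8% of all genes. Among them SHM2 was at -3.23 ± 0.571, UTR4 at -3.12 ± 0.572, DUG1 at -2.91 ± 0.668 and SSU1 at -2.69 ± 0.503. SHM2 makes one-carbon units in the cytosol, and SHM2 was lower on all 3 NaCl dates, by 2.17, 3.45 and 4.34.

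The effects of the 5 agents were compared in a joint test. 21 of the 36 genes differed between agents, beside 65.2% of all genes, and the count was 32 without NaCl replicate 1. The mean of the DNA-damaging agents (bleomycin, MMS and cisplatin) exceeded the mean of NaCl and ethanol for 4 genes and was below it for 1, beside 17.8% and 7.37% of all genes (25.2% called). MET2 differed by 0.78 ± 0.159 (adjusted p = 0.00441), STR2 by 1.32 ± 0.433, HOM2 by 0.93 ± 0.288, MUP3 by 0.73 ± 0.224 and MMP1 by -0.73 ± 0.238. MET2 was at 2.46 with MMS but at 0.23 with bleomycin and 0.19 with cisplatin, neither of them called. The fitted changes of STR2, HOM2 and MUP3 too were higher with MMS than with bleomycin, by 3.12, 1.94 and 1.18. For HOM2 this difference was 0.23 without the date block and -0.17 with the ACT1 5′ class as the block, uncalled in both. STR2 and MUP3 kept their call in these fits. None of the 5 genes was called with bleomycin or cisplatin in the fit of all arrays. MET2 alone of the 5 kept its call with any 1 array left out. The count of 5 was 17 without NaCl replicate 1 and between 1 and 3 without any 1 of Control replicates 1, 3, 4, 5, 6, 7, 9, 10 or 11, NaCl replicates 2 or 3, any MMS array, either ethanol array, bleomycin replicates 2 or 3 or either cisplatin array.

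The 36 genes differed widely in how much they varied between the 11 Control arrays. The range was over 3 for 5 genes, SAM4 (4.59), SAM1 (4.54), SAH1 (4.29), SAM2 (4.03) and CYS3 (3.71), and under 1 for 10, of which MET16 (0.59) and MET2 (0.65) varied least. MET2 read close to the filter in the Control arrays, with a mean of 3.71. The median range was 1.40 over the 36 genes and 1.44 over all genes. In SAM4, SAH1 and SAM1, among others, the values followed the Control arrays with a low ACT1 middle signal. SAM4 read 3.90 to 4.63 in those 5 arrays and 6.80 to 8.49 in the other 6. SAH1 read 4.00 to 5.61 and 7.57 to 8.28, and SAM1 4.61 to 6.76 and 8.28 to 9.15. In 10 genes the 5 arrays lay below all of the other 6, namely SAM4, SAM1, SAH1, CYS3, MET22, HOM2, MET6, MET5, MUP1 and SUL2. In MET32 alone they lay above them (5.05 to 6.07 against 3.99 to 4.43). Over all genes these patterns held for 25.4% and 12.1%. The same-date controls of MMS are among the 5 arrays. Of the 10 genes, SAM4, CYS3, HOM2, MET6, MET5, MUP1 and SUL2 were called with MMS and SAM1, SAH1 and MET22 were not. The MMS arrays read 5.86, 6.06 and 6.17 for SAH1, above all 5 low Control arrays and below each of the other 6.

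**Figure D5:**
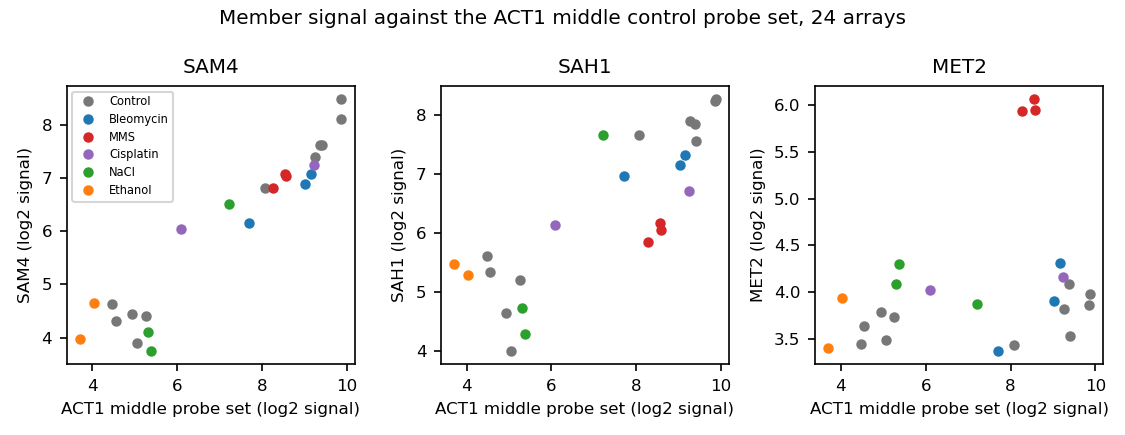
Log2 signal of SAM4, SAH1 and MET2 (vertical axes) against the signal of the ACT1 middle control probe set (horizontal axis) in the 24 arrays, coloured by group. SAM4 is low in every array with an ACT1 middle signal under 6 and at least 6.04 in the rest, while MET2 stands apart in the 3 MMS arrays (5.94 to 6.07) and is at most 4.32 in all others. The Control values of MET2 lie near the filter on low signal.

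Neighbouring genes were not always called together. MHT1 and MMP1 stand next to each other in the gene order of the reference strain, and with ethanol MMP1 rose by 1.88 while MHT1 was at 0.32 (adjusted p = 0.62). SAM3 and SAM4 are neighbours too, and with MMS SAM4 rose by 2.69 while SAM3 was at -0.52. Neither value is firm, as SAM4 was at 0.81 without a date block and at -0.53 with the ACT1 5′ class as the block, both uncalled. For SAM3 the choice of probe set decided the result. The brightest probe set averaged 6.25 and the next 6.21, and with ethanol the brightest was at -0.33 (adjusted p = 0.705) while the next was at 1.65 ± 0.261 (adjusted p = 0.00875 over 7602 probe sets). The next probe set read 7.85 and 7.78 with ethanol and at most 6.82 in the Control arrays. With MMS it was at -0.92 (adjusted p = 0.00435), and another SAM3 probe set was at 1.27 (adjusted p = 0.00514), so the probe sets of SAM3 disagree and its transcript level is uncertain.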

How the data were processed

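The authors deposited log2 signals of 9335 probe sets on 24 one-colour arrays, as the range of 1.42 to 14.39 shows; how they were summarised and normalized is not given in the sources used here. Per the labels, poly(A)+ RNA was taken from total RNA, primed with oligo(dT) and transcribed in vitro into biotin-labelled cRNA. The number of arrays limits the precision. Of the probe sets, 60 were controls, 6504 had 1 gene symbol in the given probe table, 328 had several and 2443 were not listed there, so those are unnamed here. The probe set with the highest mean stood for each gene.

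Values were quantile-normalized and fitted with R 4.3.3 and limma 3.58.1 (lmFit, then eBayes with an intensity trend), with 5 agent terms and the title's date as a block, on genes with a mean above the pooled 20th percentile (3.79); 8 residual degrees of freedom remained. The labels tie treated arrays to a same-date Control array; the correlation of deviations from the group means in the 13 pairs was above 0.1 in 6 and below -0.1 in 5. The fit was tested on simulated data. Python 3.11.15 with matplotlib 3.10.9 made the plots.

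The members and lists were chosen with earlier results of these data known. All members are accounted for, and those called, or changed by at least 1 with the same sign on every date, are named; up to 4 called genes per agent are named from the other list, and any further gene was named with its values known. Each alternative setting changed a single choice, except where stated. No promoter or protein sequence was used here.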

Additional observations from a re-analysis of the deposited data

How the results depend on the processing

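The counts below are of the 36 genes called. Except for single agents without the low-3′ arrays, the share of all genes called is not given beside these counts or those of alternative fits above. A changed count may therefore not be particular to the 36 genes. Under median scaling, a pseudocount, no filter or eBayes without a trend, the count for each agent stayed within 1.5 times its main value. In the fit with no replicate block the count was 7 for NaCl and 12 for the DNA-damaging agents minus NaCl and ethanol, the same as with the date as a random replicate block (correlation 0.0411, counts 7 and 12), and the other counts stayed within 1.5 times, although 6 single calls with MMS, 6 for MMS minus bleomycin and that of MET3 with ethanol were lost. With only the arrays compared the counts were 6 for bleomycin, 0 for NaCl and 10 for ethanol. With a 2-fold minimum they were 11 for MMS and 1 for damaging minus other agents, which was 3 with the filter at the 40th percentile and 3 with all probe sets. With ethanol replicate 1 on a date of its own they were 0 for ethanol and 2 for damaging minus other agents. With the ACT1 5′ class as the block they were 9 for NaCl and 5 for ethanol. Without the 3 low-3′ arrays, an alternative chosen after seeing the data, they were 9 for bleomycin, 10 for cisplatin, 4 for NaCl, 16 for ethanol and 15 for damaging minus other agents. With each array left out in turn the counts ran from 0 to 0 for bleomycin, 12 to 24 for MMS, 0 to 4 for cisplatin, 4 to 22 for NaCl, 0 to 10 for ethanol, 10 to 21 for MMS minus bleomycin, 1 to 17 for damaging minus other agents and 17 to 32 for any difference between agents. The cause of these shifts was not tested.

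Among single genes, values of the opposite sign were found with no replicate block for SAM1 with bleomycin (0.38), SAH1 with MMS (-0.55) and SAM4 with cisplatin (0.49). With the random block they were 0.31, -0.48 and 0.41. With the ACT1 5′ class they were 0.00318, -1.59 and 0.38, and -0.19, -0.43, -0.27 and -0.53 for MET5, HOM2, MET6 and SAM4 with MMS. For MMS minus bleomycin HOM2, MET6 and SAM4 were -0.17, -0.0962 and -0.55 there. Without the low-3′ arrays MET1, CYS4 and SAH1 with NaCl were -0.0165, 0.37 and 0.0199. MET3, MET10, MET1, MET2, CYS3, STR2, MUP1, MUP3 and MET30 kept their MMS call in every alternative that tested them, except that MET10 (0.82) fell short of the 2-fold minimum. The filter at the 40th percentile left 29 members. No depth or count underlies these signals.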
